A study of Mus musculus with 15 samples.

Results

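Arteries and veins of the brain differ in the genes their endothelium uses, and 8 such zonation markers were followed through microvessels of glioblastoma-bearing mice. They were chosen by name: Efnb2, Bmx, Gja4, Gja5, Sema3g and Gkn3 mark arterial endothelium, and Nr2f2 and Ephb4 mark venous endothelium. All 8 are among the 27174 genes of the deposited table, and all 8 passed the filter on low values that left 19668 genes for testing. Of the 8, 6 fell in untreated tumour vessels against the opposite hemisphere, where 21.4% of all genes fell. The venous genes Nr2f2 and Ephb4 and the arterial Sema3g rose after triple therapy against untreated tumour (17.2% of all genes rose). They rose after dual therapy too (12.1% of all genes rose), but without untreated replicate 1 only Sema3g of the 3 did, and relative to endothelial genes none did. Of 14 other venous genes, 1 rose and 4 fell after triple therapy against untreated tumour (32.2% of all genes were called). That list also holds leukocyte adhesion genes such as Selp, Sele, Vcam1 and Icam1. Gkn3 was called below the contralateral level after both therapies and Efnb2 after triple therapy (5.89% of all genes fell for dual and 0.824% for triple therapy). The Efnb2 call was lost in 9 of the 15 fits that left out 1 library, and also relative to endothelial genes. That of Gkn3 after dual therapy was lost in 6 of the 15 fits.

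RNA was sequenced from microvessels of adult wild-type mice (strain label BL6/57) in 5 groups of 3 libraries, each library a pool of 3 mice. The groups were sham mice without tumour cells, the hemisphere opposite the tumour in mice given control IgG (contralateral), tumour tissue of mice that also received control IgG (untreated tumour), and tumour tissue after dual or after triple therapy. The 4 groups from tumour-bearing mice were taken 21 days after transplantation. Dual therapy joined aflibercept, a soluble decoy receptor that takes up VEGF, and the peptibody AMG386, which blocks angiopoietins. Triple therapy added an antibody against the checkpoint receptor PD-1. The sources used here give neither the transplanted tumour line nor the doses, and the labels do not say whether contralateral and tumour libraries came from the same mice. Since every library is a pool, p-values measure the spread between pools.

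In a developing vessel, Notch signalling in arterial endothelium switches on the ligand ephrin-B2, encoded by Efnb2, while the nuclear receptor COUP-TFII, encoded by Nr2f2, holds Notch signalling down in veins. Ephrin-B2 binds the receptor EphB4 on venous cells, and signalling in both directions keeps the 2 kinds of vessel apart. Arterial endothelial cells are also joined by gap junctions made of the connexins encoded by Gja4 and Gja5, Bmx encodes a tyrosine kinase of the Tec family, Sema3g a secreted semaphorin, and Gkn3 a gastrokine-family protein that marks arterial endothelium of the mouse brain.

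Libraries held a total score of 11134670 to 15799111 units, and correlations of log2 scores between replicates were 0.941 to 0.977. The endothelial markers Pecam1 (6625 to 11709) and Cldn5 (4886 to 8342) were present in every library. Untreated tumour replicate 1 was the lowest of all 15 libraries for each of the 8 markers, at 38.4% (Gja5) to 64.3% (Ephb4) of the mean of the other 2 untreated pools. In this library 15 pan-endothelial genes took 0.758% of the score, against 0.870% and 0.932% in untreated replicates 2 and 3, and 11 smooth muscle genes took 0.101% against 0.173% and 0.243%. Mitochondrial ribosomal RNA took 22.4%, 33.2% and 21.5% of the score in untreated replicates 1, 2 and 3 and 9.55% to 17.4% in all other libraries. Fits on totals without ribosomal RNA-like genes, these included, are given in the last section. Beyond those fits, the part of this RNA in the differences from untreated tumour was not tested. Results that rest on replicate 1 are given with and without it.

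The promoter windows of 4 markers are shown as examples of both sides: Gkn3 and Bmx had the largest falls of the arterial markers in untreated tumour, and Nr2f2 and Ephb4 are the venous markers. Each line holds the 250 bases before the RefSeq start of transcription in GRCm38.p6, 5′ to 3′ on the gene's strand. Capitals mark, on either strand, the letters GGAA (the core bound by ETS factors), TGGGAA (the core of RBPJ, the DNA-binding partner of Notch) and ACAAT (the core bound by SOX factors). A TGGGAA always contains a GGAA.

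Bmx, chrX:164258194-164258443, minus strand: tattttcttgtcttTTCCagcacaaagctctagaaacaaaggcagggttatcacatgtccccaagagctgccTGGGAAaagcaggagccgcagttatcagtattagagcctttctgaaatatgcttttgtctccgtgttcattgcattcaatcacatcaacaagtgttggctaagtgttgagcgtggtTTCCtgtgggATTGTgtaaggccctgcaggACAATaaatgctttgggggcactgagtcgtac
Gkn3, chr6:87388936-87389185, minus strand: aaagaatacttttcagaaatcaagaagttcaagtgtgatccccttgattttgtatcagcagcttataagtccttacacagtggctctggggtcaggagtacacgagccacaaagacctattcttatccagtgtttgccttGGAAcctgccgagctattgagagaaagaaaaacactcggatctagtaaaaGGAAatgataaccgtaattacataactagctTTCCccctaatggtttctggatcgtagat
Nr2f2, chr7:70366747-70366996, minus strand: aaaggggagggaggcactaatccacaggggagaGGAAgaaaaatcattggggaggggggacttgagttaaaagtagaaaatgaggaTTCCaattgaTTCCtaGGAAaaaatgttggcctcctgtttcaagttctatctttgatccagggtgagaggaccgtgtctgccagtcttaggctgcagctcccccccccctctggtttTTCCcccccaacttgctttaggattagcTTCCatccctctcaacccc
Ephb4, chr5:137349859-137350108, plus strand: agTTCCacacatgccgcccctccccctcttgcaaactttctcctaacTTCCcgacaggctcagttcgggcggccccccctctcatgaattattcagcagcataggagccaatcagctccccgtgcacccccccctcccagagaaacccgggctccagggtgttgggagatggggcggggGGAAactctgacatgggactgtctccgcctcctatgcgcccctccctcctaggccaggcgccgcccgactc

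All 8 markers had a window, and GGAA was present in each of them, as it was in 93.4% of all 32851 windows of this length. TGGGAA was present in 1 of the 8, Bmx, with its first base 178 before the start, against 21.6% of all windows. ACAAT was present in Bmx, with 2 matches, and in Gja4, against 27.7% of all windows. The E-box letters CANNTG were found in 6 of the 8 windows (66.2% of all), the stricter CACGTG, which is also a CANNTG, in none (6.02% of all), and AGGTCA, a core of nuclear receptor sites, in none (14.0% of all). G and C made up 40.8% of the Gkn3 window, 45.6% of Bmx, 50% of Nr2f2 and 64% of Ephb4, around a median of 52.4% over all windows. These matches describe the letters of the windows only.

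Levels between genes were compared per kilobase of exon (GENCODE M21). In sham vessels the order was Gkn3, at 1429.9 ± 170.6 score units per kilobase (SD, n = 3), Sema3g at 942 ± 102, Bmx at 569 ± 16.4, Nr2f2 at 462 ± 15.2, Gja4 at 422 ± 67.2, Ephb4 at 325 ± 24.2, Efnb2 at 202 ± 13.0 and Gja5 at 77.3 ± 11.5. The sham libraries of neighbours in this order overlapped for Nr2f2 and Gja4 and for Gja4 and Ephb4, and for no other pair of neighbours. Gkn3 was thus the most abundant marker per length and Gja5 the least. In the untreated tumour Gkn3, at 547 ± 173 per kilobase, and Sema3g, at 543 ± 213, were close to each other. Where strand was not used in counting, reads of overlapping genes are shared, and the sources used here do not say how strand was treated. Exons of Nr2f2 overlap 643 bases of B130024G19Rik on the opposite strand (mean score 54.7), those of Gja5 overlap 165 bases of Gpr89 (208) and those of Ephb4 overlap 33 bases of Zan (17.8). The GENCODE M21 model of Ephb4, used here for its length and overlap, ends at 137378669, beyond the deposited end at 137374532.

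**Figure D1:**
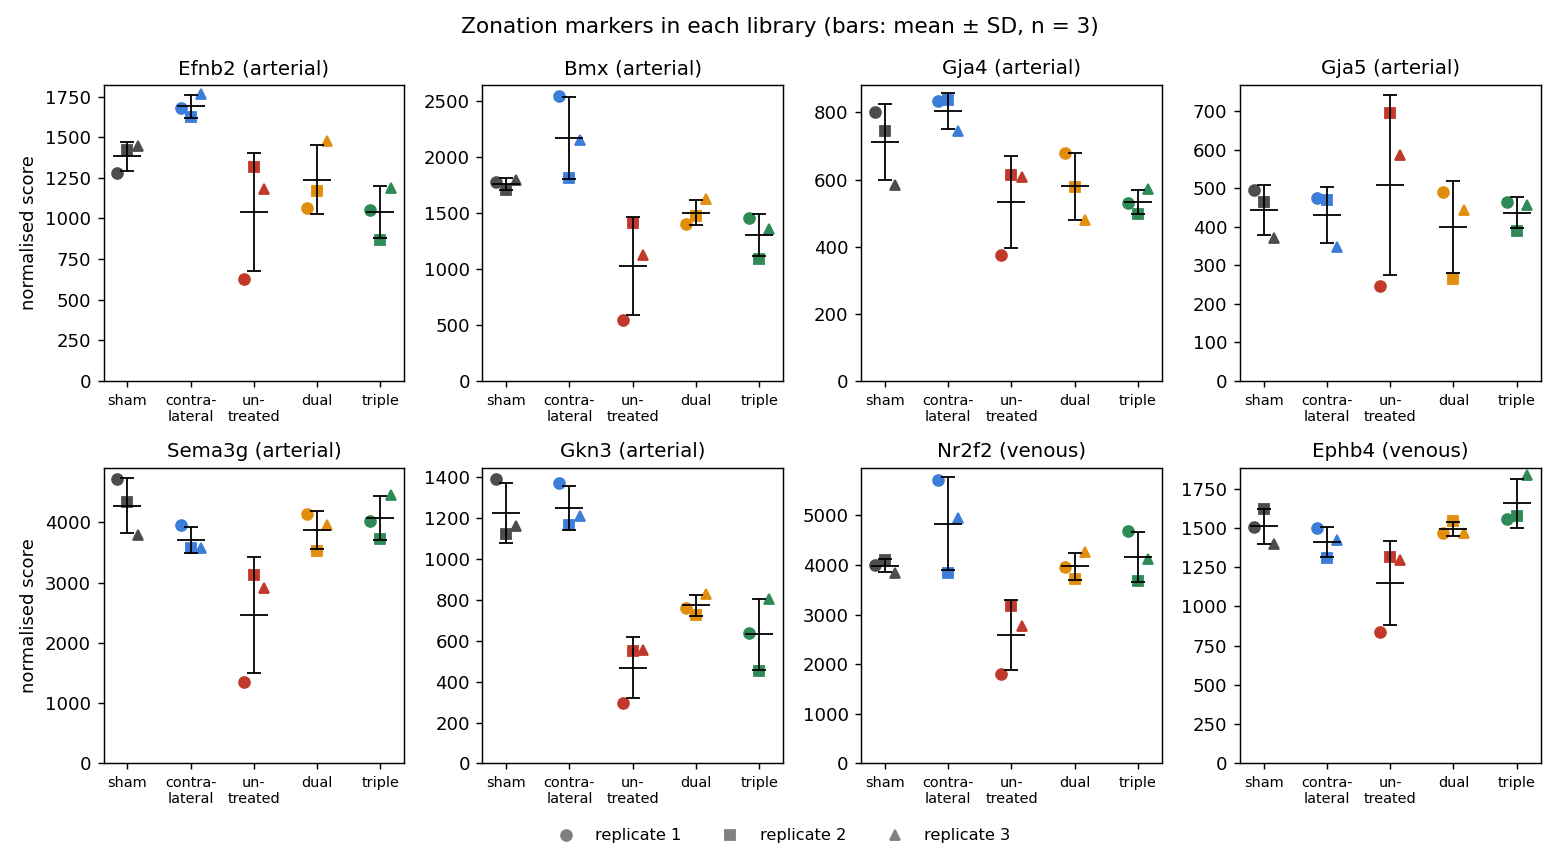
Deposited normalised score (vertical axis, linear from 0) of the 8 markers in each of the 15 libraries, by group (horizontal axis). Symbols give the replicate, bars the mean ± SD of 3 libraries. Untreated tumour replicate 1 (red circle) is the lowest library for every marker, and Gkn3 is at most 830 in all untreated and treated tumour libraries, against at least 1120 in sham and contralateral libraries.

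Vessels of the untreated tumour were compared with those of the opposite hemisphere to ask how zonation markers differ inside the tumour. Of the 6 arterial markers 5 fell and of the 2 venous markers Nr2f2 fell, while no marker rose. In this comparison 42.5% of all genes tested were called in either direction, and 21.4% of all genes fell, at an adjusted p below 0.05 in limma with Benjamini-Hochberg adjustment over all genes. The median log2 fold change was -0.72 over the arterial markers and 0.01 over all genes. In bulk vessels, fewer cells of a type and less RNA per cell cannot be told apart.

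Gkn3 (ENSMUSG00000030048, chromosome 6, 87383256 to 87388935, coordinates here and below being GRCm38 as deposited) showed the largest fall of the 8. Its score was 1371, 1165 and 1208 in the contralateral libraries and 297, 551 and 556 in untreated tumour. Every tumour library lay below every contralateral one, as in 24.5% of all genes, with replicate 1 lowest. The log2 fold change was -1.47 ± 0.21 (SE, limma adjusted p = 1.88e-05), a fall to 0.362 of the contralateral level. Without untreated replicate 1 it was -1.17 (limma adjusted p = 4.4e-05).

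Bmx (ENSMUSG00000031377, chromosome X, 164192842 to 164258193) was next. It scored 2547, 1812 and 2159 in contralateral libraries and 543, 1410 and 1128 in untreated tumour. The groups did not overlap. The log2 fold change was -1.18 ± 0.23 (SE, limma adjusted p = 0.000467), and -0.77 (limma adjusted p = 0.000472) without untreated replicate 1.

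Efnb2 (ENSMUSG00000001300, chromosome 8, 8617434 to 8661242) scored 1682, 1626 and 1765 in contralateral libraries and 630, 1316 and 1181 in untreated tumour. The contralateral pools lay close together and above all tumour pools. Its log2 fold change was -0.77 ± 0.20 (SE, limma adjusted p = 0.0044), and -0.44 (limma adjusted p = 0.0203) without untreated replicate 1. Its receptor gene Ephb4 (ENSMUSG00000029710, chromosome 5, 137350109 to 137374532) scored 1500, 1310 and 1425 in contralateral libraries and 839, 1315 and 1296 in untreated tumour. Only replicate 1 lay far below the others, and the groups overlapped. The log2 difference of Ephb4 was -0.32 ± 0.14 (SE), with an interval of -0.61 to -0.03, and it missed the threshold (limma adjusted p = 0.0684). It was called without untreated replicate 2 (-0.43, limma adjusted p = 0.0208) or replicate 3 (-0.42, limma adjusted p = 0.0323).

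Nr2f2 (ENSMUSG00000030551, chromosome 7, 70351944 to 70366735), the regulator of venous identity, scored 5707, 3845 and 4939 in contralateral libraries and 1798, 3173 and 2779 in untreated tumour. All tumour pools lay below all contralateral pools. The log2 fold change was -0.92 ± 0.17 (SE, limma adjusted p = 0.000251), and -0.68 (limma adjusted p = 0.000931) without untreated replicate 1. The fall of Nr2f2 was thus between those of the arterial markers Bmx and Efnb2.

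Sema3g (ENSMUSG00000021904, chromosome 14, 31217860 to 31230350) scored 3950, 3581 and 3579 in contralateral libraries and 1356, 3127 and 2911 in untreated tumour. The tumour pools were all lower, but replicates 2 and 3 by little. Its log2 fold change of -0.68 ± 0.21 (SE, limma adjusted p = 0.0132) became -0.29 (limma adjusted p = 0.0515), no longer past the threshold, without untreated replicate 1.

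Of the connexin genes 1 was called. Gja4 (ENSMUSG00000050234, chromosome 4, 127311421 to 127314039), which encodes connexin 37, scored 833, 838 and 744 in contralateral libraries and 375, 615 and 609 in untreated tumour. Its libraries did not overlap, with a log2 fold change of -0.63 ± 0.17 (SE, limma adjusted p = 0.00696), or -0.39 (limma adjusted p = 0.0496) without untreated replicate 1. Gja5 (ENSMUSG00000057123, chromosome 3, 96904693 to 97077416), which encodes connexin 40, scored 475, 471 and 348 in contralateral libraries and 246, 696 and 586 in untreated tumour. Replicate 1 was below and replicates 2 and 3 above all contralateral libraries. The log2 difference of Gja5 was 0.12 ± 0.29 (SE, limma adjusted p = 0.764), and without untreated replicate 1 it was 0.58 (limma adjusted p = 0.0448), a rise. So 6 of 8 were called with and without that library, but not the same 6: Sema3g was lost and Gja5 gained.

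**Figure D2:**
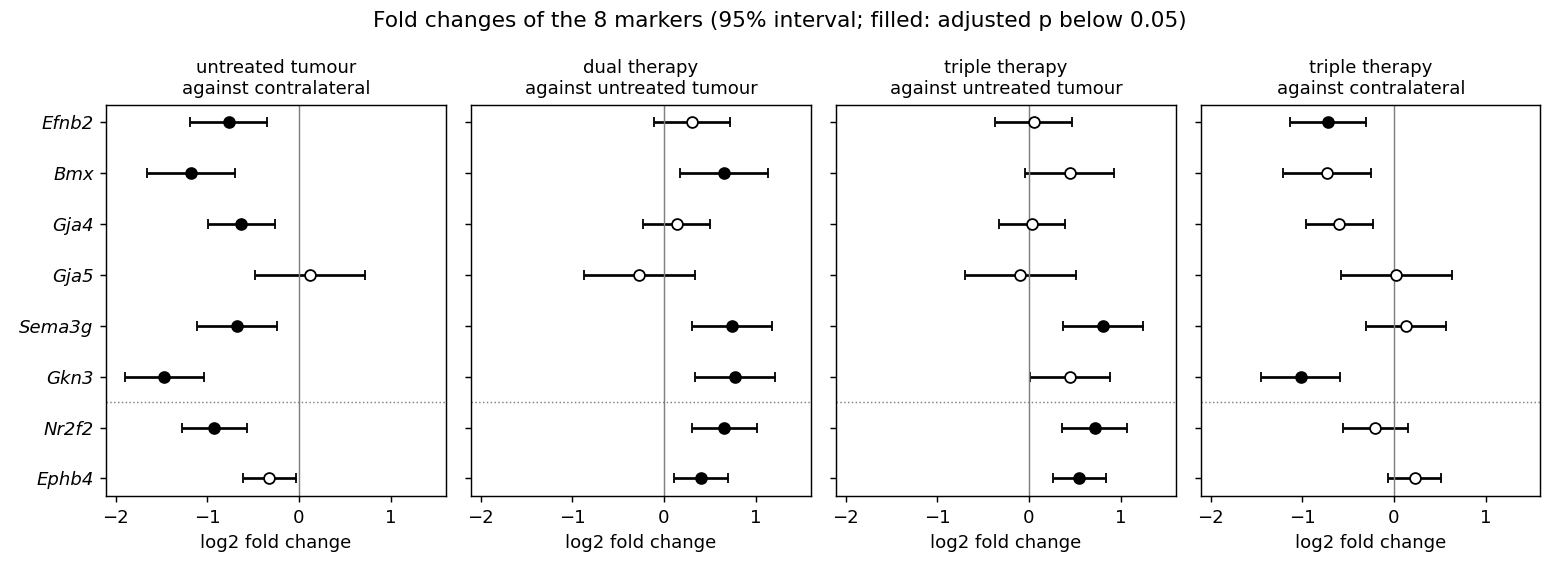
Log2 fold changes of the 8 markers (horizontal axis) with 95% intervals from limma in 4 comparisons, arterial markers above the dotted line and venous markers below. Filled circles passed an adjusted p of 0.05: 6 in untreated tumour against contralateral, 5 after dual and 3 after triple therapy against untreated tumour, and Efnb2 and Gkn3 in triple therapy against contralateral.

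Against sham the picture was similar but not identical, and both comparisons share the untreated libraries. Of the 8 markers 6 fell (46.6% of all genes were called, and 23.3% fell): Gkn3 by 1.44 on the log2 scale, Bmx by 0.89, Sema3g by 0.88, Nr2f2 by 0.67, Gja4 by 0.44 and Ephb4 by 0.42. Efnb2 scored 1281, 1424 and 1445 in sham, and untreated replicate 2, at 1316, lay among them. Its log2 difference from sham was -0.48 ± 0.20 (SE, limma adjusted p = 0.0571), and it was called without untreated replicate 2 (-0.68, limma adjusted p = 0.00863) or replicate 3 (-0.60, limma adjusted p = 0.0343). Without untreated replicate 1 the falls of Gja4 (log2 difference -0.20, limma adjusted p = 0.302) and Ephb4 (-0.21, limma adjusted p = 0.128) were lost and 4 were called: Gkn3, Bmx, Sema3g and Nr2f2. The call of Gja4 was lost in 10 of the 15 fits that left out 1 library, with an adjusted p of up to 0.302, and that of Ephb4 also without sham replicate 2 (-0.37, limma adjusted p = 0.0767).

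Between contralateral and sham vessels none of the 8 was called in limma, where 0.432% of all genes were called (2341 of 19668 had p below 0.05 before adjustment). The log2 differences ran from -0.20 (Sema3g) to 0.29 (Efnb2 and Bmx). The libraries of Efnb2 and Bmx did not overlap between these groups, with every contralateral pool above every sham pool, as in 8.50% of all genes. Contralateral Efnb2 at 1691 ± 69.9 (SD, n = 3) against 1383 ± 89.2 in sham had an interval of the log2 difference from -0.13 to 0.71.

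Dual therapy was compared with untreated tumour to ask what blocking VEGF and angiopoietins together does to the markers. Of the 8, 5 rose: the arterial Bmx, Sema3g and Gkn3 and both venous markers. Among all genes 22.3% were called and 12.1% rose. The median log2 fold change was 0.48 over the arterial markers, 0.53 over the venous ones and -0.01 over all genes.

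Gkn3 scored 759, 727 and 830 after dual therapy, above every untreated pool, as in 2946 of the 19668 genes tested, and below every contralateral pool. Its log2 fold change against untreated tumour was 0.78 ± 0.21 (SE, limma adjusted p = 0.0122). Sema3g scored 4131, 3520 and 3958, also above all untreated pools, a log2 fold change of 0.74 ± 0.21 (SE, limma adjusted p = 0.016). Bmx scored 1407, 1475 and 1628, and the lowest of these lay below untreated replicate 2. Its log2 fold change was 0.66 ± 0.23 (SE, limma adjusted p = 0.0482).

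Nr2f2 scored 3951, 3720 and 4252 after dual therapy, all above the untreated pools. The log2 fold change was 0.66 ± 0.17 (SE, limma adjusted p = 0.0094). Ephb4 scored 1465, 1546 and 1470, again without overlap, a log2 fold change of 0.41 ± 0.14 (SE, limma adjusted p = 0.0422). The mean of Ephb4 after dual therapy was 1494 ± 45.4 (SD, n = 3).

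The remaining arterial markers were not called after dual therapy. Efnb2 scored 1067, 1170 and 1477, overlapping the untreated pools, a log2 difference of 0.30 ± 0.20 (SE, limma adjusted p = 0.297). Gja4 scored 680, 579 and 480 (log2 difference 0.14 ± 0.17 SE), and Gja5 491, 264 and 444 (-0.27 ± 0.29 SE). The low Gja5 value of dual replicate 2 lay close to that of untreated replicate 1.

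The dual therapy calls leaned on untreated replicate 1. Without it Sema3g still rose (log2 fold change 0.36, limma adjusted p = 0.0435), and Gja5 fell (-0.72, limma adjusted p = 0.0322). Gkn3 (0.48, limma adjusted p = 0.0724), Nr2f2 (0.42, limma adjusted p = 0.0522), Bmx (0.25, limma adjusted p = 0.273) and Ephb4 (0.19, limma adjusted p = 0.239) kept their direction and missed the threshold. The differences of Efnb2 (-0.02) and Gja4 (-0.09) changed sign. The Bmx call was lost in 12 of the 15 fits that left out 1 library and that of Ephb4 in 9.

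Triple therapy was compared with untreated tumour in the same way, with the untreated libraries in common. Of the 8, 3 rose, the venous markers and Sema3g, where 32.2% of all genes were called and 17.2% rose. The median log2 fold change was 0.25 over the arterial markers, 0.64 over the venous ones and -0.02 over all genes.

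Nr2f2 scored 4676, 3679 and 4116 after triple therapy, above every untreated pool, as in 21.5% of all genes, a log2 fold change of 0.72 ± 0.17 (SE, limma adjusted p = 0.00331). Ephb4 scored 1556, 1579 and 1835, which also lay above every contralateral and every dual therapy pool. Of the 19668 genes tested, 2543 did so against contralateral and 1823 against dual therapy, and Ephb4 was called in neither comparison. Its log2 fold change against untreated tumour was 0.55 ± 0.14 (SE, limma adjusted p = 0.00524). Sema3g scored 4020, 3723 and 4455, again above all untreated pools, a log2 fold change of 0.81 ± 0.21 (SE, limma adjusted p = 0.00605). These 3 calls were also made without untreated replicate 1, at 0.48 for Nr2f2, 0.34 for Ephb4 and 0.43 for Sema3g on the log2 scale (limma adjusted p = 0.0179, 0.0251 and 0.0107).

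The other arterial markers overlapped the untreated pools after triple therapy. Efnb2 scored 1053, 870 and 1188, with a mean of 1037 ± 160 (SD, n = 3) against 1042 ± 363 in untreated tumour. Its log2 difference was 0.05 ± 0.20 (SE, limma adjusted p = 0.871), and without untreated replicate 1 it was -0.28 (limma adjusted p = 0.163). Gja4 scored 531, 497 and 571, a log2 difference of 0.03 ± 0.17 (SE), or -0.20 without replicate 1. Gkn3 scored 639, 453 and 801, and its log2 difference of 0.45 ± 0.21 (SE) had an interval of 0.01 to 0.88 and missed the threshold (limma adjusted p = 0.108). Bmx scored 1461, 1093 and 1362 (log2 difference 0.44 ± 0.23 SE, limma adjusted p = 0.152) and Gja5 464, 390 and 456 (-0.09 ± 0.29 SE). Without untreated replicate 2, Bmx (0.73, limma adjusted p = 0.0135) and Gkn3 (0.59, limma adjusted p = 0.0463) were called as well, and Gkn3 also without triple replicate 2 (0.67, limma adjusted p = 0.0235). That library was the lowest of its group for 7 of the 8 markers.

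Adding anti-PD-1 to dual therapy gave no called marker in limma, where 0.869% of all genes were called (2850 had p below 0.05 before adjustment). The log2 differences of triple from dual therapy ran from -0.33 (Gkn3, interval -0.76 to 0.11) to 0.17 (Gja5, interval -0.43 to 0.78). The arterial Efnb2 (-0.25), Bmx (-0.21) and Gja4 (-0.11) were lower and the venous Ephb4 (0.15) and Nr2f2 (0.06) higher on this scale, each with an interval that spans 0. Ephb4 was the marker whose libraries did not overlap between the therapies, as in 9.27% of all genes.

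The treated vessels were also set against the contralateral hemisphere, to see which markers still differed from it. After dual therapy Gkn3 was lower, by 0.69 on the log2 scale (limma adjusted p = 0.0347), where 12.8% of all genes were called and 5.89% fell. After triple therapy Gkn3 was lower by 1.02 (limma adjusted p = 0.00473) and Efnb2 by 0.72 (limma adjusted p = 0.0429), where 4.97% of all genes were called and 0.824% fell. The highest Gkn3 pool after triple therapy, at 801, and the highest after dual therapy, at 830, lay below the lowest contralateral pool, at 1165. The highest Efnb2 pool after triple therapy, at 1188, lay below the lowest contralateral pool, at 1626.

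Of the other arterial markers, Bmx and Gja4 were lower than contralateral after triple therapy without passing the threshold. Bmx differed by -0.73 ± 0.23 (SE, limma adjusted p = 0.0835) and Gja4 by -0.59 ± 0.17 (SE, limma adjusted p = 0.057), both with no overlap between the groups' libraries, as in 10.5% of all genes. Without untreated replicate 1, a library of neither group that enters the shared estimate of spread, both were called (Bmx and Gja4, limma adjusted p = 0.00152 and 0.0107). Sema3g, at 0.13 ± 0.21 (SE), Gja5, at 0.03 ± 0.29 (SE), and the venous Nr2f2, at -0.20 ± 0.17 (SE), and Ephb4, at 0.23 ± 0.14 (SE), overlapped or missed the threshold. The call of Efnb2 was lost in 9 of the 15 fits that left out 1 library, with an adjusted p of up to 0.217, and that of Gkn3 after dual therapy in 6 of 15, with up to 0.118. Without untreated replicate 1, Efnb2 (-0.46, limma adjusted p = 0.0183), Bmx (-0.52, limma adjusted p = 0.0112) and Gja4 (-0.49, limma adjusted p = 0.021) were called as lower after dual therapy too.

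In the F-test across the 5 groups 7 of 8 markers differed (43.5% of all genes did), and Gja5 did not (limma adjusted p = 0.934). Gkn3 had the smallest adjusted p of the 8, at 3.34e-05, and Ephb4 the largest of the 7, at 0.0283.

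The scores of the ligand gene Efnb2 and its receptor gene Ephb4 were set against each other in each library, as a description with no test. The log2 of Efnb2 minus that of Ephb4 was -0.13 ± 0.15 (SD, n = 3) in sham and 0.26 ± 0.08 in contralateral vessels. It was -0.18 ± 0.21 in untreated tumour, -0.28 ± 0.25 after dual therapy and -0.68 ± 0.16 after triple therapy. Among untreated pools replicate 1 was at -0.41 and replicate 3 at -0.13, with replicate 2 near 0. The 3 triple therapy pools, from -0.86 to -0.56, lay below the lowest pool of every other group. How many other pairs of genes do so was not counted. The mean log2 of the 6 arterial minus that of the 2 venous markers was -0.96 in sham, -0.95 in contralateral vessels, -1.09 in untreated tumour, -1.24 after dual and -1.45 after triple therapy. Of the untreated pools, replicate 1 was at -1.34, and replicates 2 and 3, at -0.95 and -0.99, lay near the sham mean. Efnb2 minus the other venous marker, Nr2f2, was -1.53 in sham, -1.50 in contralateral vessels, -1.34 in untreated tumour, -1.69 after dual and -2.01 after triple therapy, so its untreated mean was the highest of the 5. Among arterial markers, Gkn3 minus Sema3g went from -1.80 in sham and -1.57 in contralateral vessels to -2.36 in untreated tumour, -2.32 after dual and -2.72 after triple therapy. The untreated and dual therapy means thus lay close together, below both groups of non-tumour vessels, and the triple therapy mean lay lowest.

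Because libraries can differ in how much endothelium they hold, each marker was also set against the mean log2 score of 15 pan-endothelial genes of its own library. The VEGF receptor genes Flt1 and Kdr and the angiopoietin receptor gene Tek are among these 15. Of the 15, 4 fell and 1 rose in untreated tumour against contralateral (42.5% of all genes were called). Against untreated tumour 4 rose after dual therapy (22.3%), and 3 rose and 2 fell after triple therapy (32.2%). The reference can thus itself move with tumour and therapy. This scaling moves the median log2 fold change of all genes to 0.28 in untreated tumour against contralateral, to -0.26 after dual and to -0.14 after triple therapy against untreated tumour, so changes on it are relative to endothelial genes. On it, 4 markers fell in untreated tumour against contralateral (11.1% of all genes fell): Gkn3 by 1.19 on the log2 scale, Bmx by 0.90, Nr2f2 by 0.65 and Efnb2 by 0.49. Sema3g (-0.40, limma adjusted p = 0.0878) and Gja4 (-0.35, limma adjusted p = 0.102) missed the threshold. After dual therapy no marker was called against untreated tumour (3.57% of all genes rose), with Gkn3 at 0.53 (limma adjusted p = 0.0593) and Sema3g at 0.49 (limma adjusted p = 0.0681).

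After triple therapy the same 3 markers rose on this scale (10.6% of all genes rose): Sema3g by 0.69, Nr2f2 by 0.60 and Ephb4 by 0.43 on the log2 scale (limma adjusted p = 0.00991, 0.0196 and 0.0302). Gkn3 was lower than in contralateral vessels after dual (-0.67) and triple therapy (-0.87), where 2.58% and 0.234% of all genes fell, and Efnb2 missed the threshold after triple therapy (-0.57, limma adjusted p = 0.0902). Relative to endothelial genes and to the sham mean, Gkn3 stood at -1.25 ± 0.37 (SD, n = 3) in untreated tumour, -0.72 ± 0.21 after dual and -0.92 ± 0.29 after triple therapy. Ephb4 stood at -0.23 ± 0.23, -0.07 ± 0.08 and 0.20 ± 0.04 in the same groups. The scaling also changes the split of all calls: the share that rose went from 49.6% to 71.5% in untreated tumour against contralateral, from 49.9% to 63.4% against sham, from 54.3% to 19.9% for dual and from 53.5% to 42.1% for triple therapy against untreated tumour. Against contralateral it went from 54% to 65.1% for dual and from 83.4% to 94.9% for triple therapy.

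**Figure D3:**
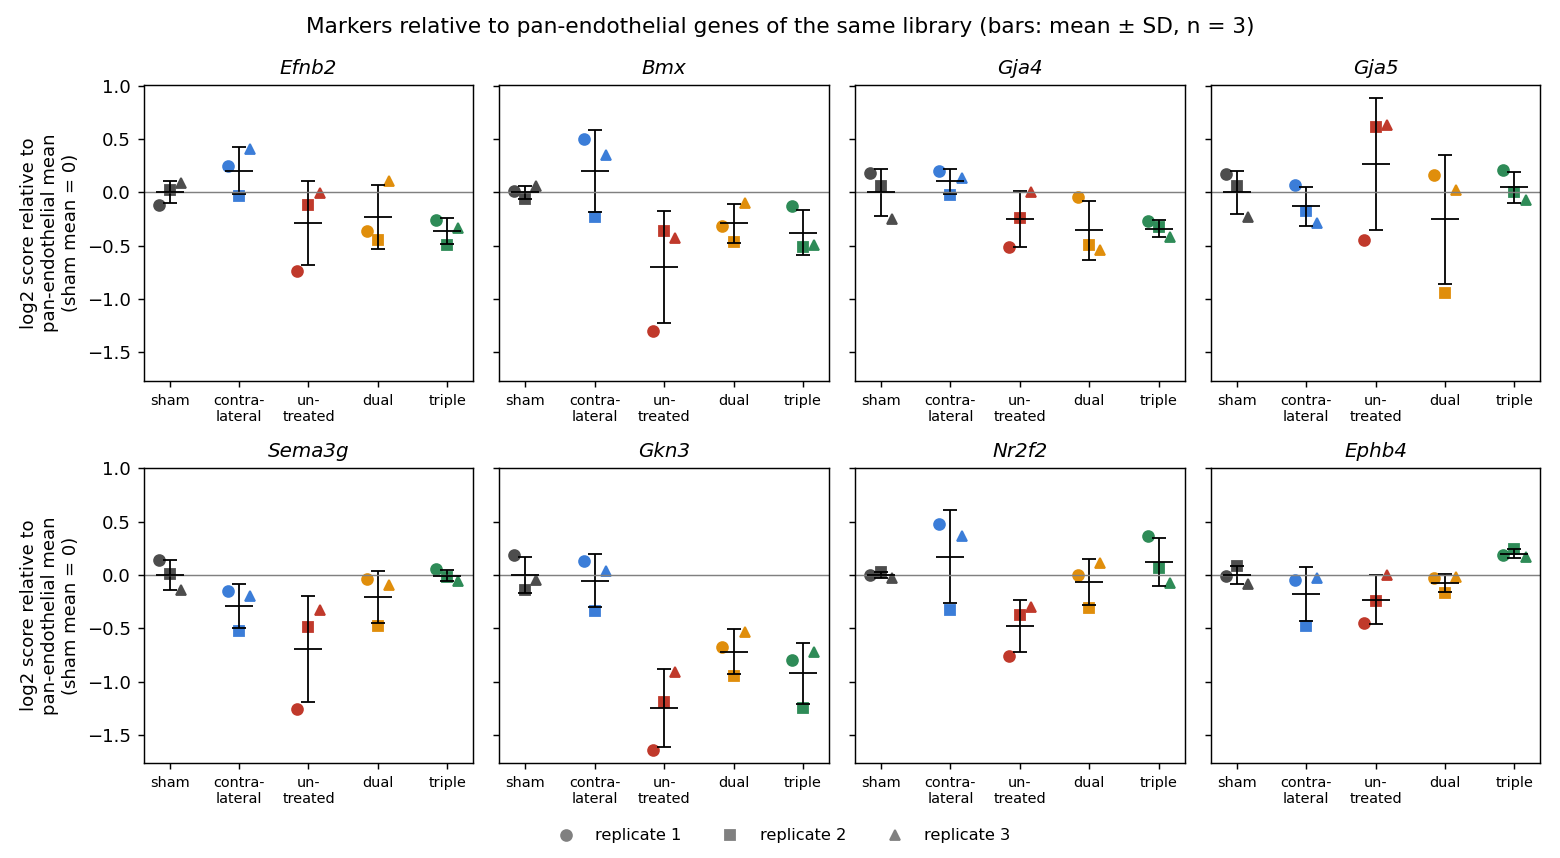
Log2 score of each marker minus the mean log2 score of 15 pan-endothelial genes of the same library, with the sham mean set to 0 (vertical axis), by group (horizontal axis). Symbols give the replicate, bars the mean ± SD of 3 libraries. Gkn3 lies at -0.54 or lower in every tumour library, treated or not, while the 3 triple therapy pools of Ephb4 lie between 0.17 and 0.24.

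Other genes of arterial endothelium were counted from a list of 20 that holds none of the 8 markers. In untreated tumour against contralateral 13 fell and 1 rose, with a median log2 fold change of -0.69, where 21.4% of all genes fell. The signalling genes Notch1, a Notch receptor, and Tgfb2, a TGF-beta ligand, each fell by 0.72 on the log2 scale (limma adjusted p = 0.000203 and 0.000173). Stmn2, which is also on the list of neuronal genes, fell by 1.11. Cxcr4, the receptor of the chemokine CXCL12 and also used by immune cells, rose by 1.80 (limma adjusted p = 2.28e-05). Without untreated replicate 1, 10 fell and 1 rose.

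After dual therapy 11 of the 20 rose and 2 fell against untreated tumour, and after triple therapy 10 rose and 3 fell. Among all genes 12.1% rose after dual and 17.2% after triple therapy. Sox17, a transcription factor of arterial endothelium, rose by 1.25 after triple therapy (limma adjusted p = 2.85e-05), Fbln2, which encodes an extracellular matrix protein, by 0.84 and Notch1 by 0.60. The few that fell, named after their values were seen, were Cxcr4 and the Notch ligand gene Dll4 after either therapy, and the endothelin gene Edn1 after triple therapy. Dll4 fell by 0.72 after dual and by 0.87 after triple therapy on the log2 scale (limma adjusted p = 0.0336 and 0.00811). Against contralateral vessels triple therapy left 3 of the 20 lower, Edn1, Dll4 and Tgfb2, and none higher. In that comparison 4.97% of all genes were called and 0.824% fell. Without untreated replicate 1 the counts against untreated tumour were 7 that rose and 2 that fell for dual and 8 and 3 for triple therapy. With pan-endothelial scaling 8 of the 20 fell and 1 rose in untreated tumour against contralateral (11.1% of all genes fell). On that scale 4 rose and 2 fell after dual therapy against untreated tumour (3.57% of all genes rose). After triple therapy 8 rose and 3 fell on it (10.6% of all genes rose).

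Of 14 other venous genes, 6 rose and 1 fell in untreated tumour against contralateral (42.5% of all genes were called), with a median log2 fold change of 0.06. Aplnr, the apelin receptor, rose by 4.12 (limma adjusted p = 1.37e-07), Selp, which encodes P-selectin, by 4.12, Ackr1, an atypical chemokine receptor of venules, by 2.94 and Tmsb10 by 1.56. Selp and Sele were at 0 in 1 library each. With Vcam1 and Icam1 they are genes of leukocyte adhesion, so the list is not a measure of venous identity alone. Il1r1, the interleukin 1 receptor gene, was the 1 that fell, and without untreated replicate 1 none did. After triple therapy Aplnr (-3.95), Tmsb10 (-1.20), Ackr1 (-1.64) and Sele (-1.93) fell against untreated tumour while Il1r1 rose by 0.76. Among all genes 32.2% were called in that comparison. Slc38a5, Vwf, Nrp2, Flt4 and Emcn, also on the list, were not called in it. After dual therapy Aplnr was the 1 gene of the 14 that was called against untreated tumour, at -3.20 (22.3% of all genes were called).

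Of 12 capillary genes 10 fell in untreated tumour (median log2 fold change -0.87), among them the transporter genes Slc22a8, by 1.23, Slco1a4, by 1.04, and Abcb1a, by 0.98 on the log2 scale. After dual therapy 10 and after triple therapy 11 of the 12 rose against untreated tumour. Of all genes, 21.4% fell in untreated tumour against contralateral, and 12.1% rose after dual and 17.2% after triple therapy. In untreated tumour the median changes were thus -0.69 for the arterial, 0.06 for the venous and -0.87 for the capillary list, against 0.01 over all genes.

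**Figure D4:**
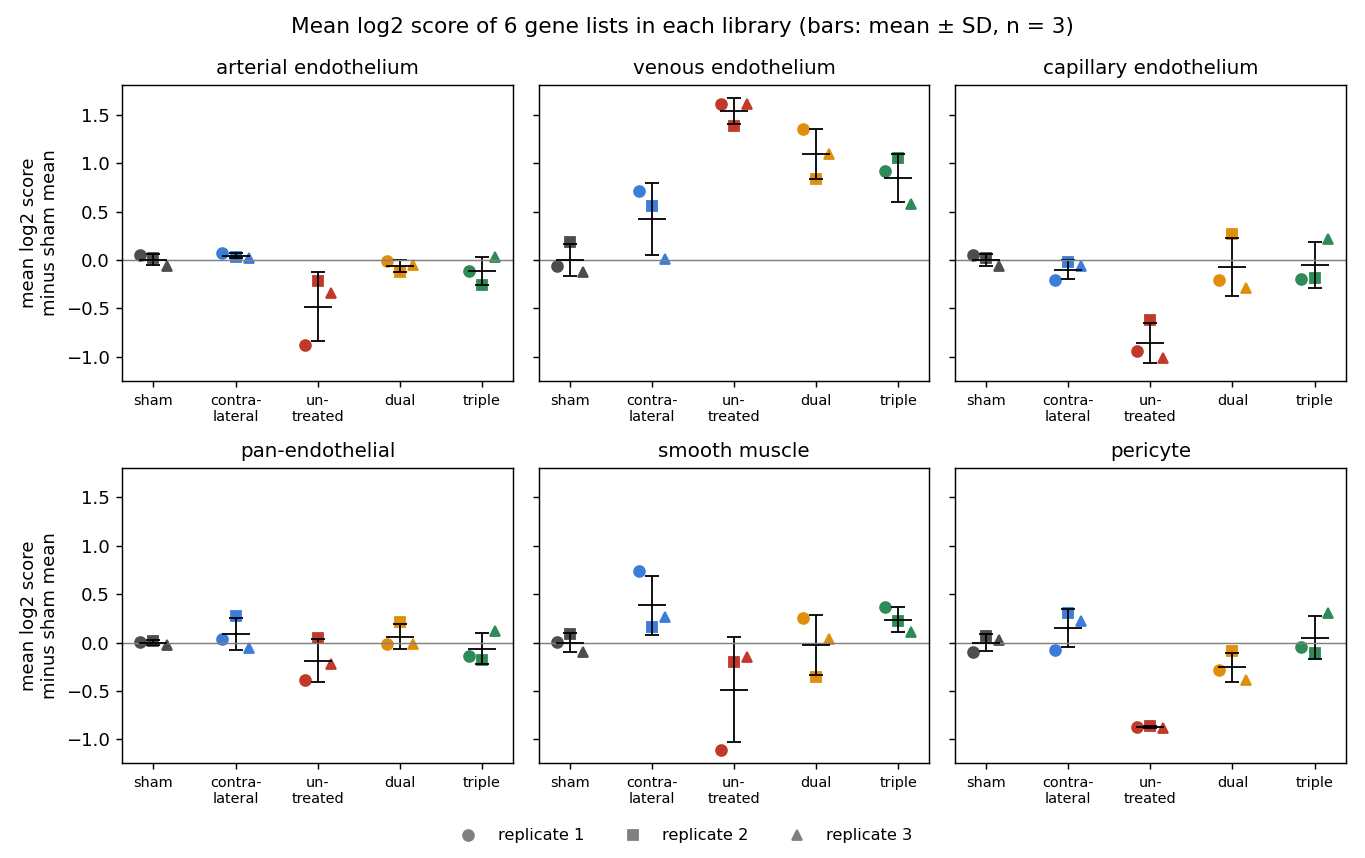
Mean log2 score of 6 gene lists minus the sham mean (vertical axis) in each library by group (horizontal axis). Symbols give the replicate, bars the mean ± SD of 3 libraries. Untreated tumour replicate 1 stands apart from the other untreated pools on the arterial (-0.88) and smooth muscle (-1.11) lists, but not on the pericyte list (-0.87, against -0.86 and -0.88).

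Partners of the markers were read from the same fit. Of 10 further ephrin and Eph genes 7 fell and none rose in untreated tumour against contralateral, where 42.5% of all genes were called and 21.4% fell. With pan-endothelial scaling 5 of them fell and 1 rose (11.1% of all genes fell on that scale). Epha4 (-1.06, limma adjusted p = 2.6e-06), Ephb6 (-1.59), Efnb3 (-1.37) and Efna5 (-1.01) had the smallest adjusted p of those that fell, as log2 fold changes. After triple therapy 6 of the 10 rose (17.2% of all genes rose). Among them were Efnb1, another ligand of EphB receptors, which went from a mean score of 156 to 384 (log2 fold change 1.31, limma adjusted p = 1.46e-05), Ephb6 (1.53), Ephb1 (1.42) and Efnb3 (1.10).

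Of 7 further connexin genes tested (8 of the 10 listed are in the table), 4 fell and 1 rose in untreated tumour. In this comparison 21.4% of all genes fell. Among those that fell were Gjb2 (-2.03), Gjb6 (-1.97), which is also on the astrocyte list, and Gjc1 (-0.76), which encodes connexin 45. Gja6, named after its values were seen, rose by 1.71 (limma adjusted p = 0.0488). With untreated replicate 1 left out, 3 fell and none rose. After triple therapy Gjb6 (2.24), Gjb2 (1.76) and Gjc1 (0.79) were among those that rose.

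Of 7 genes for neuropilins and plexins, the receptors of class 3 semaphorins such as Sema3g, 2 rose and 3 fell in untreated tumour. In this comparison 42.5% of all genes were called, and 21.4% fell. With pan-endothelial scaling 2 rose and 1 fell, where 27.8% of all genes rose and 11.1% fell. Plxna3 rose by 2.05 and Plxnd1 by 0.73, and Plxna4, Plxna2 and Nrp1 fell by 1.01, 0.44 and 0.29 on the log2 scale. After triple therapy Plxna2 (0.59) and Plxna4 (0.81) rose while Plxna3 (-1.46) and Plxnd1 (-0.52) fell against untreated tumour.

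Genes of other cell types of the vessel wall moved alongside the markers. Over all genes, 21.4% fell in untreated tumour against contralateral, and 12.1% rose after dual and 17.2% after triple therapy. Of 11 smooth muscle genes 9 fell in untreated tumour against contralateral, among them Mylk (-1.28), Myl9 (-1.28), Lmod1 (-1.24) and Synpo2 (-1.17) on the log2 scale. Their summed score was 12604 to 29777 in untreated tumour, 41175 to 64280 in contralateral, 36858 to 47856 in dual and 47901 to 52682 in triple therapy libraries. After dual therapy 7 of the 11 rose and Actg2, named after its values were seen, fell, and after triple therapy 8 rose. With untreated replicate 1 left out, 7 fell in untreated tumour against contralateral, and 5 rose after dual and 5 after triple therapy. Of 11 pericyte genes 10 fell in untreated tumour, among them Vtn (-1.44), Notch3 (-1.30), Pdgfrb and Rgs5 (-1.22 each), with a summed score of 25275 to 29774 against 55844 to 71879. After dual therapy 8 and after triple therapy 10 rose. With pan-endothelial scaling 7 smooth muscle and 8 pericyte genes fell in untreated tumour, 4 and 4 rose after dual and 5 and 8 after triple therapy. On that scale 11.1% of all genes fell in untreated tumour, and 3.57% rose after dual and 10.6% after triple therapy. None of these 22 genes was at 0 in any library, and their part in the marker results was not tested.

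Of the 15 pan-endothelial genes 4 fell and 1 rose in untreated tumour (median log2 fold change -0.28), where 21.4% of all genes fell. Ptprb (-0.80), Tek, the angiopoietin receptor (-0.76), Flt1, a VEGF receptor (-0.81), and Pecam1 (-0.52) fell, and Egfl7, named after its values were seen, rose by 0.55. After triple therapy Tek (0.82) and Ptprb (0.59) rose with Pecam1 (0.35), and Kdr, the main VEGF receptor, and Egfl7 fell by 0.58 and 0.56. After dual therapy Tek, Ptprb, Pecam1 and Flt1 rose. The shares of all genes that rose were 12.1% after dual and 17.2% after triple therapy. Leaving out untreated replicate 1, 1 of the 15 rose and 1 fell after dual therapy, and 1 rose and 2 fell after triple therapy.

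Genes of other cell types and of proliferation were counted too. Between untreated tumour and contralateral, 42.5% of all genes were called and 21.4% fell. In untreated tumour against contralateral, 7 of 9 macrophage and microglia genes rose and 1 fell (summed score 6372 to 7575 against 4639 to 4964), 7 of 7 T cell genes rose (504 to 600 against 53 to 131) and 6 of 6 proliferation genes rose. Of 9 neuronal genes 8 fell (1811 to 3524 against 9514 to 11816), of 8 astrocyte genes 5 fell and 1 rose, of 9 fibroblast genes 6 fell and 1 rose, of 4 lymphatic genes tested 3 fell and 1 rose, of 6 oligodendrocyte genes none was called and of 2 neutrophil genes tested both rose. The T cell genes Cd3e and Cd3g were at 0 in 1 library each and Cd3d in 2. After triple therapy all 6 proliferation genes fell against untreated tumour (32.2% of all genes were called). The part of these cell types and of proliferation in the marker results was not tested.

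For each marker the genes with the most similar pattern were found by Pearson correlation of log2 scores over the 15 libraries, among 11474 tested genes with a mean score of at least 50. The libraries fall into groups, among which 43.5% of all genes tested differed in the F-test, so the values are given as a description. For Efnb2 these were Spaar (0.955), Arhgap20 (0.954) and the marker Bmx (0.926). For Bmx they were Synpo2 (0.957), which is on the smooth muscle list, Cd24a (0.953) and Rps6ka5 (0.950). For Gkn3 they were Rps6ka5 (0.942), Mkl2 (0.935) and Zfyve9 (0.935). For Sema3g they were Ptprj (0.970), Ehd2 (0.966) and Smad6 (0.964).

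The venous Nr2f2 was most similar to the arterial gene Hey2 (0.976), followed by Lmod1 (0.967), a smooth muscle gene, and Angpt1 (0.966), which encodes angiopoietin 1. Ephb4 was most similar to Cbfa2t3 (0.937), the arterial marker Sema3g (0.931) and C2cd2 (0.930). Both venous markers thus had an arterial gene among their nearest 3, and Nr2f2 had a smooth muscle gene as well. Which cells of the bulk vessels carry these RNAs was not tested. Gja4 was most similar to Tm4sf1 (0.879), Stom (0.872) and Syt15 (0.872), and Gja5 to Capzb (0.787), Yif1b (0.777) and Gstp1 (0.757), the lowest values of the 8.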

How the data were processed

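Microvessel RNA of 15 libraries (5 groups of 3, each a pool of 3 mice) was sequenced with a stranded total RNA kit, per the labels' protocols. The submitters' processing notes name STAR 2.4.0a, featureCounts 1.4.5-p1, DESeq2 and the build GRCm38 (mm10). The authors deposited normalised scores rounded to whole numbers for 27174 genes, which are not counts. In 11 of 15 libraries the spacing of low values gave what 1 read was worth, 0.677 to 1.861 units, and so an estimated 6365348 to 18035515 reads (largest error on 8 simulated libraries 0.001). The lowest marker value in these libraries then stands for about 181 reads, a counting error of 7.43%. For the other 4 libraries the depth is unknown.

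Scores were transformed to log2(score + 1), so fold changes of low genes are understated. A gene was tested where 3 or more libraries had a score of 10 or more (19668 genes, leaving out 7506). All libraries entered 1 fit of group means in limma 3.58.1 under R 4.3.3, with a trend of variance on mean, 10 residual and on average 8.26 prior degrees of freedom. P-values were adjusted by Benjamini-Hochberg over all genes tested, and a gene was called below 0.05, in 8 comparisons and an F-test. On simulated data for untreated tumour against contralateral (18937 genes), 45 of 50 genes lowered by 1 on the log2 scale, 40 of 50 raised by 1 and all of those changed by 2 were recovered, with 15 false calls.

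The markers and lists were chosen with earlier results of these data known. From each list of vessel genes up to 4 with the smallest adjusted p in untreated tumour against contralateral and up to 4 in triple therapy against untreated tumour are named, and for each marker the 3 most correlated genes; 1 gene that the rule names is not reported here. Alternatives were another pseudocount (10), no filter, quantile normalisation, scaling to 15 pan-endothelial genes, totals without ribosomal RNA-like genes, only the groups compared, libraries left out, array quality weights, no trend and the replicate number as a block. Counts over lists without untreated replicate 1 and under pan-endothelial scaling were added after the data were seen. Promoter windows and start sites are RefSeq's for GRCm38.p6.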

Additional observations from a re-analysis of the deposited data

How the results depend on the processing

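Over 25 alternatives to the fit, 1428 of 1600 marker values kept their direction and their side of the threshold, 92 lost and 34 gained a call, and 46 changed sign, none of them called with all libraries and the settings of the report. The falls of Gkn3, Bmx, Nr2f2 and Efnb2 in untreated tumour against contralateral were called under every alternative run, as was the rise of Sema3g, Nr2f2 and Ephb4 after triple therapy against untreated tumour. In the 11 libraries with an estimated depth, counting error of the lowest marker value was at most 7.43%, and the other 4 have no estimate. Where a cause is not evident from the alternative itself, such as fewer libraries, the cause was not tested.

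The number of markers called in dual therapy against untreated tumour (5) was 3 with quantile normalisation, 0 with pan-endothelial scaling, 3 with totals without ribosomal RNA-like genes, 2 with only the groups compared, 3 with array quality weights and 1 without a mean-variance trend. In dual therapy against contralateral (1) it was 0 with quantile normalisation, 4 with only the groups compared, 0 without untreated replicate 2 and dual replicate 2, 3 with array quality weights and 0 without a trend. In triple therapy against contralateral (2) it was 1 with pan-endothelial scaling, 4 with only the groups compared, 4 without those 2 libraries, 4 with array quality weights and 1 without a trend. In triple therapy against untreated tumour (3) it was 5 without those 2 libraries. In the F-test (7) it was 4 with pan-endothelial scaling and 3 without a trend. With each library left out in turn the counts ran from 2 to 5 for dual therapy against untreated tumour, 0 to 4 for dual therapy against contralateral, 1 to 4 for triple therapy against contralateral and 3 to 5 for triple therapy against untreated tumour.

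In triple therapy against untreated tumour Efnb2 and Gja4 changed sign and were -0.05 and -0.03 with quantile normalisation, -0.07 and -0.09 with pan-endothelial scaling, -0.07 and -0.09 with totals without ribosomal RNA-like genes and -0.07 and -0.08 with array quality weights. Pan-endothelial scaling also gave -0.05 for Gkn3 in contralateral against sham, -0.11 for Gja4 in dual therapy against untreated tumour and 0.02 for Gja4 in triple against dual therapy, and quantile normalisation gave 0.01 for Gja5 in contralateral against sham. Without untreated replicate 2 and dual replicate 2, Gja5 was -0.17 in untreated tumour against contralateral, -0.21 against sham, 0.30 in dual and 0.20 in triple therapy against untreated tumour, -0.10 in triple against dual therapy and 0.13 in dual therapy against contralateral.

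With each library left out in turn, Gja5 ran from -0.17 to 0.58 in untreated tumour against contralateral, from -0.21 to 0.53 against sham, from -0.17 to 0.10 in contralateral against sham, from -0.72 to 0.02 in dual and from -0.55 to 0.20 in triple therapy against untreated tumour, from -0.10 to 0.35 in triple against dual therapy, and against contralateral from -0.32 to 0.13 for dual and from -0.12 to 0.11 for triple therapy. Efnb2 ran from -0.02 to 0.51 in dual and from -0.28 to 0.25 in triple therapy against untreated tumour, and Gja4 from -0.09 to 0.27 and from -0.20 to 0.15. Gja4 ran from -0.24 to 0.01 and Nr2f2 from -0.03 to 0.14 in triple against dual therapy, and Gkn3 from -0.04 to 0.13 in contralateral against sham.

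With the replicate block, the replicate number as a term, the fall of Efnb2 in untreated tumour against sham was called (-0.48, limma adjusted p = 0.0342). Gja4 in untreated tumour against sham (limma adjusted p = 0.0548) and Bmx in dual therapy against untreated tumour (limma adjusted p = 0.0546) missed the threshold. Deviations of same-numbered libraries from their group means correlated at -0.13 to 0.10, so the numbers were not taken to pair the samples.

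Totals without ribosomal RNA-like genes changed the share of all calls that rose to 60.7% in untreated tumour against contralateral, 62.1% against sham, 38.6% after dual and 40.5% after triple therapy against untreated tumour, and 48.9% in triple against dual therapy.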
